A study of Oryzias latipes with 5 samples.

Results

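Oligosaccharyltransferase is the enzyme of the endoplasmic reticulum (ER) membrane that transfers a preassembled glycan from a lipid carrier to asparagine residues of proteins entering the secretory pathway. Its genes were read here in medaka (Oryzias latipes, strain Cab), a small laboratory fish. The members were the rows of the deposited gene table whose name, in any letter case, was stt3a, stt3b, rpn1, rpn2, ddost, dad1, krtcap2, magt1, tusc3 or ostc. The names gave 12 of the 25689 rows, since dad1 had 2 rows and stt3b had 2 (stt3b and STT3B). The choice used names and no measured value.

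Messenger RNA had been sequenced from cells expressing col10a1:nlGFP, a fluorescent reporter driven by the type X collagen gene, at 10 days post fertilization, with embryos kept at 30 °C. The labels name the cells chondrocytes and osteoblast progenitors. There were 3 libraries from wild-type siblings (col10a1wt/wt, col10a1:nlGFP+/+) and 2 from heterozygous mutants (col10a1wt/mut, col10a1:nlGFP+/+), so that all fish, controls included, were homozygous for the reporter, and the labels do not say what the mutation changes. The series describes the libraries as biological replicates. Whether a library came from 1 fish or from pooled fish is not stated in the sources used here. In bulk RNA, fewer cells of a type and less RNA per cell cannot be told apart.

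The enzyme comes in alternative assemblies built around either of 2 catalytic subunits. In mammals, the STT3A assembly, with krtcap2 and ostc, is docked at the protein-conducting channel and glycosylates proteins while they are being threaded through it. The STT3B assembly carries a thiol oxidoreductase subunit, MAGT1 or TUSC3, and also acts on sites that the other assembly missed. Both contain the shared subunits rpn1, rpn2, ddost, dad1, ost4 and tmem258. Cells that secrete matrix proteins, many of them glycoproteins, depend on this enzyme.

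The libraries held 24791662 to 28012092 reads, recovered from the deposited FPKM (fragments per kilobase of gene length and per unit of depth, as the authors scaled them). Mutant library 2 stood apart, with reads on 12334 genes against 19397 to 21134 in the others. Its Pearson correlations with the other libraries across tested genes, on log2(FPKM + 1), were 0.80 to 0.82, and those between the other libraries were 0.95 to 0.97 (genes are no independent replicates). The FPKM of each member is therefore given below for the mutant libraries singly, as are the medians of the gene lists. The osteoblast lineage genes col10a1a, sparc and sp7 were high in all 5 libraries, and 9 such markers summed to 14346 to 16993 FPKM in wild-type and 9864 to 10242 FPKM in mutant libraries. The 9 chondrocyte markers found summed to 284 to 369 FPKM in wild-type and 149 to 198 FPKM in mutant libraries. Markers of other secretory cells were present too. The 7 liver markers found had a summed level of 50198 to 61485 FPKM in the wild type, 85576 in mutant 1 and 35534 in mutant 2. The 11 exocrine pancreas markers found had a summed level of 361 to 538 FPKM in the wild type, 1058 in mutant 1 and 21.5 in mutant 2, where 9 of the 11 were at 0.

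No member passed the test between genotypes. limma on log2(FPKM + 1), with Benjamini-Hochberg adjustment over 13680 genes, gave adjusted p from 0.399 to 0.973 for the 10 members tested. Of all genes tested, 1 passed at an adjusted p under 0.05, which is 0.00731%. At an unadjusted p under 0.05, limma gave 3 of the 10 members higher in the mutants and 0 lower, and voom on the recovered reads called 0 members at an adjusted p under 0.05. The matching shares of all tested genes were 3.21% higher and 7.60% lower. The 3 members were krtcap2 and both dad1 rows, and the dad1 rows could share reads. All 10 had at least 4 FPKM in each wild-type library, so none entered the test through the mutants alone. The remaining members, ostc and the second STT3B row, lay below the minimum of 1 FPKM in 2 libraries.

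The subunits differed widely in level, and per kilobase the wild-type order ran from krtcap2 down to tusc3. In wild-type libraries krtcap2 stood at 226 ± 34.2 FPKM (SD, n = 3) and magt1 at 217 ± 30.6 (SD, n = 3), with overlapping ranges. The dad1 row on chromosome 18 followed at 127 ± 33.1 FPKM (SD, n = 3). Then came ddost at 74.5 ± 4.97, rpn1 at 60.3 ± 12.96 and rpn2 at 54.8 ± 9.06 FPKM (SD, n = 3 each), where neighbours overlapped. Below them lay stt3a at 34.1 ± 5.90, the dad1 row on chromosome 17 at 17.997 ± 4.25, stt3b at 8.33 ± 0.302 and tusc3 at 5.88 ± 1.37 FPKM (SD, n = 3 each), each with its range apart from the next. Among the mutants the ranges of rpn1, ddost and rpn2 overlapped in turn, as did those of stt3b, tusc3 and the second STT3B row, while krtcap2 headed the order and the chromosome 18 dad1 row came before magt1.

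**Figure D1:**
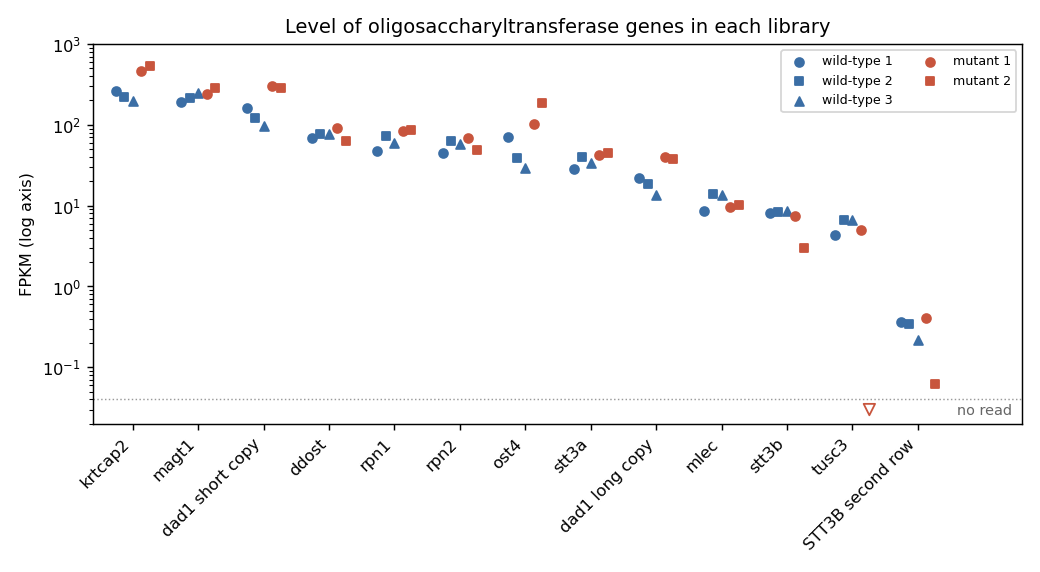
FPKM on a log axis for each library (blue wild-type, red mutant; marker shape gives the replicate number) of 11 members and the partners ost4 and mlec, ordered by wild-type mean; "short copy" is the chromosome 18 dad1 row, "long copy" the chromosome 17 row, and the open triangle marks no read. Both red points lie above all blue ones for krtcap2, both dad1 rows, rpn1, stt3a and ost4, and below them for stt3b; tusc3 had no read in mutant library 2.

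Of the catalytic subunits, stt3a was the more abundant in every library. This gene (ENSORLG00000018527, chromosome 14, 65118 to 88452, minus strand) encodes the catalytic subunit of the assembly docked at the channel. Wild-type libraries 1 to 3 held 28.5, 40.3 and 33.4 FPKM of it, whereas mutant libraries 1 and 2 had 42.0 and 45.1 FPKM. The mutants lay above all wild-type libraries, by a margin over wild-type 2 that was smaller than the wild-type spread. The log2 difference, mutant minus wild-type, was 0.36 (SE 0.25, 95% interval -0.23 to 0.95), with a limma adjusted p of 0.456.

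The other catalytic gene, stt3b (ENSORLG00000004284, chromosome 16, 9726271 to 9747073, plus strand), lay the opposite way. Wild-type libraries held 8.05, 8.30 and 8.65 FPKM of it and the mutants 7.36 and 3.03 FPKM. Both mutants were below every wild-type library, mutant 1 slightly and mutant 2 clearly, on 1029 and 581 reads. The log2 difference was -0.69 (SE 0.43, 95% interval -1.69 to 0.32), with a limma adjusted p of 0.424, and without mutant 2 it was -0.16. The second row, STT3B on chromosome 11 (ENSORLG00000002300, 5796455 to 5914027, minus strand), had 0.215 to 0.365 FPKM in the wild type, against 0.409 and 0.0630 FPKM in the mutants. It shares 30.9% of its span with OSBPL10 on the other strand, and no source used here gives the build, annotation or strand setting.

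In the STT3A assembly, krtcap2 gave the smallest p of all members. It encodes a small membrane subunit (ENSORLG00000022276, chromosome 16, 18554036 to 18555477, plus strand, 411 bp of gene length). Wild-type libraries stood at 264, 218 and 197 FPKM and mutant libraries at 467 and 535 FPKM. The groups did not overlap, and the lower mutant was well above the highest wild-type library. The ratio of the means was 2.21, and the log2 difference was 1.15 (SE 0.22, 95% interval 0.63 to 1.67), with a limma adjusted p of 0.399 and an unadjusted p of 0.00107. Singly, mutant 1 lay 1.05 and mutant 2 1.25 above the wild-type mean on the log2(FPKM + 1) scale, so the libraries were alike in this gene. Its partner ostc (ENSORLG00000004900, chromosome 18, 11293839 to 11295788, plus strand) was listed at 0 in all 5 libraries. Its whole span lies within etnppl on the other strand, which stood at 112 to 137 FPKM in all libraries. Whether this overlap bears on the value of 0 was not tested, and the value is not read as a level.

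In the STT3B assembly, both oxidoreductase genes were measured. magt1 (ENSORLG00000020616, chromosome 10, 4527702 to 4531462, minus strand) had 190, 212 and 250 FPKM in wild-type and 241 and 283 FPKM in mutant libraries. The groups overlapped, and the log2 difference was 0.27 (SE 0.22, 95% interval -0.24 to 0.79; limma adjusted p = 0.5003). Its relative tusc3 (ENSORLG00000014026, chromosome 1, 31614181 to 31706146, minus strand) was lower in every library than magt1. Wild-type libraries stood at 4.30, 6.67 and 6.68 FPKM, mutant 1 at 5.06 FPKM, and mutant 2 had no read, where 3 reads would be 0.0377 FPKM. Mutant 1 thus lay inside the wild-type range and mutant 2 alone made the difference of -1.46 (SE 0.75; limma adjusted p = 0.399), which was -0.16 without that library. Of the 7196 genes with a wild-type mean of 5 FPKM or more, 9.56% had no read in mutant 2, so tusc3 is 1 of 688 such genes.

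RNA levels of STT3A-assembly and STT3B-assembly genes were compared within each library. Such ratios do not depend on the scaling between libraries apart from the pseudocount. The amounts of the assembled enzymes were not measured. The FPKM ratio of stt3a to stt3b was 3.55, 4.85 and 3.86 in wild-type libraries and 5.71 and 14.9 in mutant libraries 1 and 2. Neither mutant overlapped the wild-type range. The FPKM ratio of rpn1 to rpn2, which both assemblies share, did not overlap either. It was 1.07, 1.18 and 1.03 in wild-type and 1.21 and 1.78 in mutant libraries. The share of gene pairs that separate in this way was not counted. On the log2(FPKM + 1) scale the mean ratio of stt3a to stt3b was 1.90 ± 0.23 (SD, n = 3) in the wild type. In the mutants it was 2.94 ± 0.81 (SD, n = 2). A two-sided exact permutation test over the 10 splits gave p = 0.1, and a design of 3 against 2 libraries allows no smaller p.

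Taking the genes of each assembly as a group, the mean of stt3a, krtcap2 and ostc minus that of stt3b, magt1 and tusc3 was formed. It gave -0.08, -0.25 and -0.48 in wild-type and 0.24 and 1.48 in mutant libraries. The difference was 1.13 (two-sided exact permutation p = 0.1). It was 0.51 without mutant 2 and 1.75 without mutant 1, so the size rested largely on the sparse library while the sign did not. With ostc left out, because it was listed at 0, the difference was 1.38. The ratio was then 2.08, 1.94 and 1.64 in wild-type and 2.62 and 3.91 in mutant libraries. The wild-type values below 0 thus arose from counting ostc as 0. With tusc3 left out as well, the difference was 0.96. The FPKM ratio of krtcap2 to magt1, which have many reads in all libraries, was 1.39, 1.03 and 0.787 in wild-type and 1.93 and 1.89 in mutant libraries. Here the mutants were close to each other and above all wild-type libraries. The genes differ in length, 411 bp for krtcap2 and 1081 bp for magt1, and the part of length in this ratio was not tested.

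**Figure D2:**
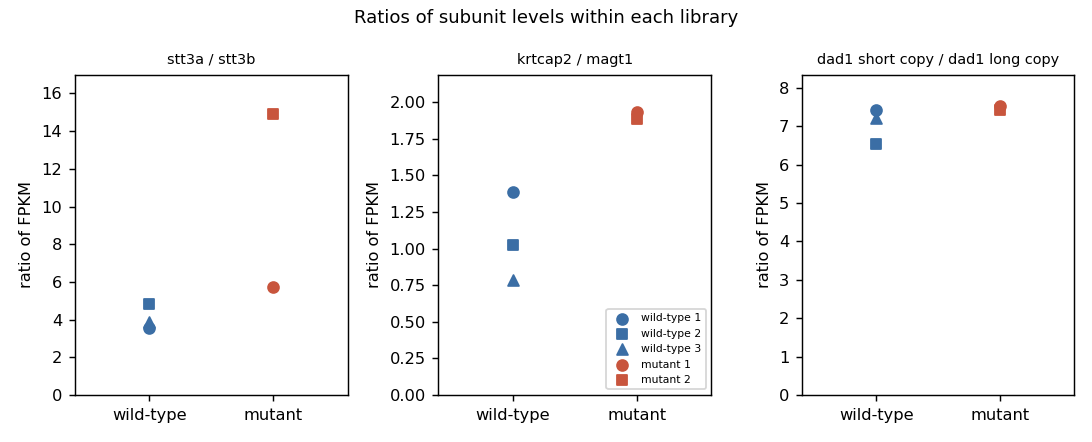
Ratio of FPKM between pairs of subunit genes within each library (y axes start at 0), for stt3a over stt3b, krtcap2 over magt1, and the chromosome 18 over the chromosome 17 dad1 row; each point is a library. The first ratio is 3.55 to 4.85 in wild-type and 5.71 and 14.9 in mutant libraries, and the dad1 ratio stays between 6.53 and 7.54.

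The shared subunit dad1, a small protein first named as a defender against cell death, was higher in both mutants in both of its rows. The chromosome 18 row (ENSORLG00000030501, 24757194 to 24757535, plus strand, 264 bp of gene length) had 163, 121 and 97.8 FPKM in wild-type and 303 and 284 FPKM in mutant libraries. The chromosome 17 row (ENSORLG00000012492, 18459750 to 18464374, plus strand, 2616 bp) had 21.99, 18.5 and 13.5 FPKM in wild-type and 40.2 and 38.3 FPKM in mutant libraries. Neither pair of groups overlapped, and wild-type 1 was the highest wild-type library in both rows. The log2 differences were 1.23 (SE 0.26, 95% interval 0.62 to 1.84) and 1.11 (SE 0.29, 95% interval 0.43 to 1.79), both with a limma adjusted p of 0.399.

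The dad1 rows kept nearly the same proportion in all libraries. The chromosome 18 row held 0.659 to 0.748 reads per read of the chromosome 17 row in wild-type libraries and 0.748 and 0.761 in the mutants. Copies this alike in name could share reads, and no source used here tells how reads that fit both were counted, so the rows are not independent evidence. The chromosome 17 row also lies wholly within the span of abhd4 on the other strand. abhd4 stood at 61.5 to 97.4 FPKM in wild-type and 58.3 and 46.8 FPKM in mutant libraries. What this overlap does to the value of the dad1 row was not tested.

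The large shared subunits differed less. rpn1, ribophorin I, which hands some membrane proteins to the catalytic subunit (ENSORLG00000007728, chromosome 5, 15354375 to 15359775, plus strand), had 47.9, 73.8 and 59.15 FPKM in wild-type and 83.3 and 85.9 FPKM in mutant libraries. Each mutant exceeded wild-type 2, the highest wild-type library. The log2 difference was 0.50 (SE 0.25, 95% interval -0.08 to 1.09; limma adjusted p = 0.399). rpn2, ribophorin II (ENSORLG00000011590, chromosome 5, 23201390 to 23215517, minus strand), had 44.8, 62.4 and 57.3 FPKM in wild-type and 68.6 and 48.1 FPKM in mutant libraries, so that mutant 1 was above and mutant 2 within the wild-type range. Its log2 difference was 0.08 (SE 0.27, 95% interval -0.55 to 0.71; limma adjusted p = 0.879). A gene that the table describes as somatoliberin (ENSORLG00000022015) overlaps 14.4% of the rpn2 span on the other strand and stood at 18.6 FPKM in mutant 1 and 0 in mutant 2.

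ddost, a membrane subunit of the core that both assemblies share (ENSORLG00000019313, chromosome 7, 706831 to 713196, plus strand), had 68.8, 77.6 and 77.2 FPKM in wild-type and 90.9 and 62.3 FPKM in mutant libraries. The mutants fell on opposite sides of all wild-type libraries. The log2 difference was 0.02 (SE 0.24, 95% interval -0.55 to 0.59), with a limma adjusted p of 0.973. The intervals of ddost and rpn2 cover both signs, so a rise or a fall within them is not excluded. Those of stt3a, rpn1, magt1, stt3b and tusc3 cover both signs too.

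**Figure D3:**
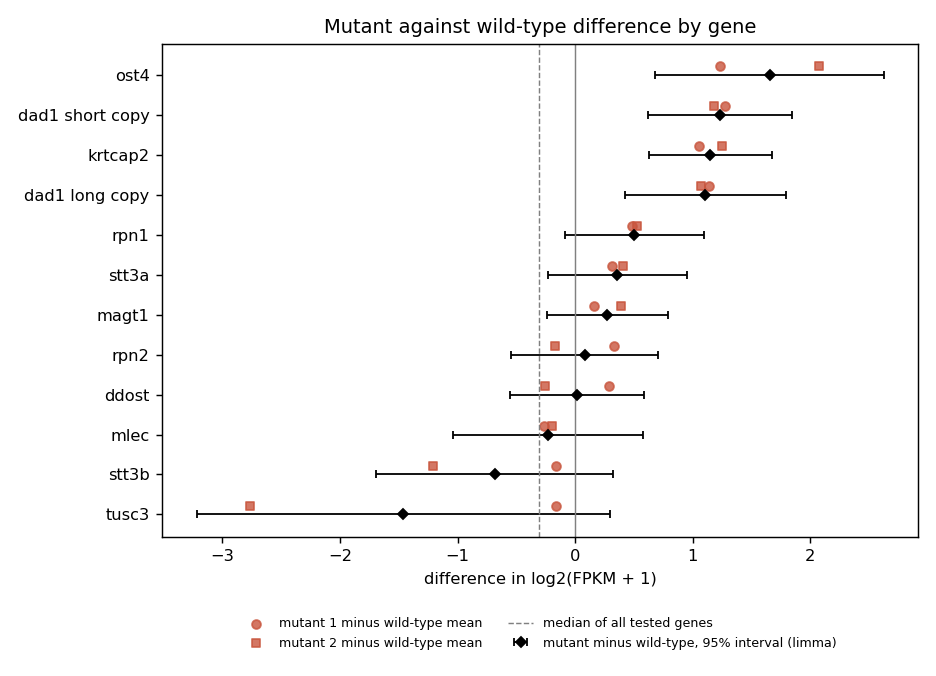
Mutant minus wild-type difference in log2(FPKM + 1) with its 95% limma interval (black) and the difference of each mutant library from the wild-type mean (red) for the 10 tested members, ost4 and mlec; the dashed line is the median of all tested genes, -0.31. The mutant libraries lie close together for krtcap2, dad1, rpn1 and stt3a and far apart for stt3b and tusc3.

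Across the 10 tested members, 8 lay higher in the mutants and 2 lower. Their median was 0.32 on the log2 scale, where the median of all 13680 tested genes was -0.31 and 34.1% of genes lay higher. Among the 7540 genes that passed a minimum of 5 FPKM, the median of all genes was nearer, at -0.18, with the members at 0.32. Both mutants lay above all wild-type libraries for 5 members, against 8.33% of all tested genes. These 5, like the 8 higher members, include both dad1 rows, which could share reads and are not independent. Both lay below for 1 member, stt3b, against 26.0% of all tested genes. Of all 13680 tested genes 3227 had no read in mutant 2, and of the 10 tested members 1, tusc3. A gene without a read there cannot lie above the wild type. These shares, used for the lists below too, were not formed for genes of like level. The member median was 0.32 in mutant 1 alone and 0.40 in mutant 2 alone, and those of all tested genes were -0.16 and -0.49. After quantile normalization, which moved the median of all genes to 0.01, the member median was 0.27. The summed markers of liver and of exocrine pancreas, given above, were higher than wild-type in mutant 1 and lower in mutant 2, whereas krtcap2 and dad1 were higher in both. The single liver genes differed from their sum. apoa1b, its largest part in all 5 libraries, was above the wild-type range in mutant 1 and below it in mutant 2. fabp10a was above it in both, at 4795 to 7002 FPKM in wild-type and 13745 and 8633 FPKM in mutant libraries. apoa2 was above it in mutant 1 and within it in mutant 2, cp below it in both, and tfa, fga and fgb within it in mutant 1 and below it in mutant 2. The summed chondrocyte and osteoblast lineage markers lay below the wild-type range in each mutant, but single genes differed. Of 9 chondrocyte markers, 6 lay below it in both mutants and 1, col11a2, above it in both. Of 9 osteoblast lineage markers, 5 lay below it in both, while sp7 and spp1 lay within it in both. runx2 was below it in mutant 1 and above it in mutant 2. The largest parts of the osteoblast lineage sum were col10a1a and sparc. The part of these cell types in the members' differences was not tested.

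Gene length moved with part of this pattern. The median log2 difference was -0.04 for the 819 tested genes under 500 bp and -0.34 for the 8385 genes of 2000 bp or more. In mutant 1 alone these medians were 0.21 and -0.20, and in mutant 2 alone -0.36 and -0.46. The short genes thus lay on opposite sides of 0 in the mutant libraries, but above the long genes in each. Short genes differed between wild-type libraries too. Their medians, relative to the wild-type mean, were 0.15, -0.05 and -0.10 in wild-type libraries 1 to 3. For the 2 members under 500 bp these were 0.31, -0.04 and -0.27. Both mutants lay above all wild-type libraries for 21.0% of the genes under 500 bp and 6.23% of those of 2000 bp or more. krtcap2 (411 bp) and the chromosome 18 dad1 row (264 bp) are in the short class. The chromosome 17 dad1 row (2616 bp), rpn1 (3454 bp) and stt3a (5769 bp) are in the long class. The dad1 rows could share reads, so the longer one is not independent of the shorter. The part of length in the differences of the short members was not tested.

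**Figure D4:**
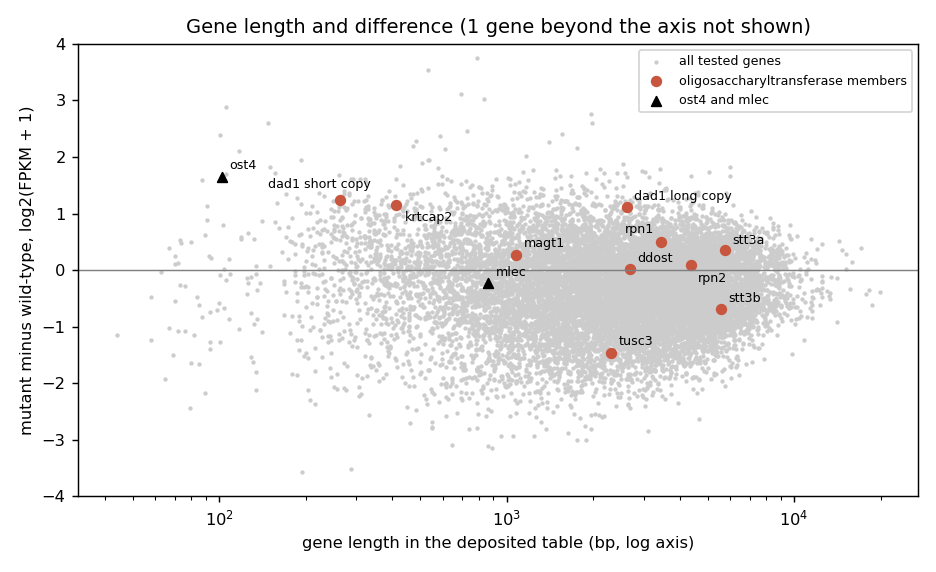
Gene length in base pairs (log axis) against the mutant minus wild-type difference in log2(FPKM + 1) for all tested genes (grey), the 10 tested members (red) and ost4 and mlec (black triangles); 1 gene lies beyond the axis. ost4, krtcap2 and the chromosome 18 dad1 row lie among the short genes. The chromosome 17 dad1 row has a similar difference at 2616 bp, but the dad1 rows could share reads and are not independent.

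Further genes of the complex were read beside the members. ost4, the smallest subunit (ENSORLG00000026011, chromosome 24, 3398685 to 3398786, plus strand, 102 bp), stood at 71.2, 38.9 and 29.1 FPKM in wild-type and 103 and 185 FPKM in mutant libraries. The groups did not overlap, but each group spread widely. The log2 difference was 1.65 (SE 0.42; limma adjusted p = 0.399). mlec, malectin, an ER lectin that binds glucosylated glycans and is found with ribophorin I in mammals, stood at 8.58, 13.9 and 13.6 FPKM in wild-type and 9.64 and 10.1 FPKM in mutant libraries, and differed by -0.23 on the log2 scale (SE 0.35; limma adjusted p = 0.718). tmem258, another small subunit, was at 0.0438 FPKM or lower in every library. It shares 77.6% of its span with tmem138 on the other strand. Whether this overlap bears on the value was not tested, and the value is not read as a level.

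Genes that build the glycan before its transfer were spread in both directions, and none of 28 tested passed the limma test (adjusted p 0.399 to 0.980, with 6 at an unadjusted p under 0.05). Of these 28, 17 lay higher and 11 lower, and the list's median log2 difference came to 0.12. The list median was 0.32 in mutant 1 alone and -0.04 in mutant 2 alone. Among all tested genes 34.1% lay higher. Both mutants lay above all wild-type libraries for 9 and below for 4, against 8.33% and 26.0% of all tested genes. The 6 genes at an unadjusted limma p under 0.05 were all higher. Among all tested genes 3.21% were higher and 7.60% lower at that p. The 3 subunits of dolichol-phosphate mannose synthase, which supplies mannose on its lipid carrier, lay above the wild-type range in each mutant. dpm3, which tethers the enzyme, stood at 122, 101 and 81.5 FPKM in wild-type and 187 and 247 FPKM in mutant libraries. The catalytic dpm1 stood at 56.9, 46.1 and 48.7 FPKM in wild-type and 71.5 and 120 FPKM in mutant libraries. dpm2, named here after its values were seen, had 13.6, 10.7 and 8.22 FPKM in wild-type and 20.3 and 23.99 FPKM in mutant libraries. For all 3 genes the groups did not overlap, and none passed (limma adjusted p = 0.399 each).

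dhdds, a subunit of the enzyme that makes the dolichol chain, had the smallest p of this list. It stood at 9.33, 13.3 and 9.74 FPKM in wild-type and 26.7 and 30.2 FPKM in mutant libraries, and its log2 difference was 1.34 (SE 0.30; limma adjusted p = 0.399). nus1, the other subunit of that enzyme and also named after its values were seen, lay within the wild-type range in each mutant. It had 15.6, 12.4 and 17.3 FPKM in wild-type and 17.0 and 14.1 FPKM in mutant libraries. Its log2 difference was 0.05 (SE 0.30; limma adjusted p = 0.935). alg5, which makes the glucose donor for the glycan, stood at 18.5 to 26.4 FPKM in wild-type and 61.7 and 37.4 FPKM in mutant libraries. On the lower side, ALG11, a mannosyltransferase, and uap1, which makes UDP-N-acetylglucosamine, had no read in mutant 2. This held for 3227 of all 13680 tested genes. In mutant 1 ALG11 and uap1 had 3.28 and 16.3 FPKM, where wild-type libraries had 3.91 to 4.63 and 13.6 to 16.99 FPKM. pmm1, a phosphomannomutase, differed by -0.37, with -0.32 in mutant 1 alone and -0.43 in mutant 2 alone. dolk and gnpnat1 were listed at 0 in all libraries.

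Genes that trim the transferred glycan and read it during folding and export likewise showed no call by limma in 21 tested (adjusted p 0.399 to 0.994, with 2 at an unadjusted p under 0.05). Of these, 11 lay higher and 10 lower, and the list's median log2 difference came to 0.09. The list median was 0.003 in mutant 1 alone and 0.20 in mutant 2 alone. Among all tested genes 34.1% lay higher. Both mutants lay above all wild-type libraries for 4 and below for 2, against 8.33% and 26.0% of all tested genes. Of the 2 genes at an unadjusted limma p under 0.05, 1 was higher and 1 lower. Among all tested genes 3.21% were higher and 7.60% lower at that p. lman1, the lectin that carries glycoproteins out of the ER, stood at 52.2, 65.1 and 66.5 FPKM in wild-type and 101 and 192 FPKM in mutant libraries, and its log2 difference was 1.18 (SE 0.31; limma adjusted p = 0.399). calr3b, of the calreticulin family of lectin chaperones, stood at 51.1 to 68.0 FPKM in wild-type and 116 and 69.5 FPKM in mutant libraries. prkcsh, the noncatalytic subunit of glucosidase II, stood at 34.1 to 43.0 FPKM in wild-type libraries, at 41.8 in mutant 1 and at 110 in mutant 2. lman2 differed by 0.72, with 0.13 in mutant 1 alone and 1.30 in mutant 2 alone. Lower were the lectin chaperone canx, at 73.0 to 91.0 FPKM in wild-type and 59.4 and 18.5 FPKM in mutant libraries, the mannosidase man1b1b, the Golgi transferase mgat1b, and edem2, of ER degradation. The last 3 had no read in mutant 2 and lay within the wild-type range or just below it in mutant 1. Their wild-type means were low, at 1.93, 1.86 and 1.62 FPKM. Of all 13680 tested genes, 3227 had no read in mutant 2.

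**Figure D5:**
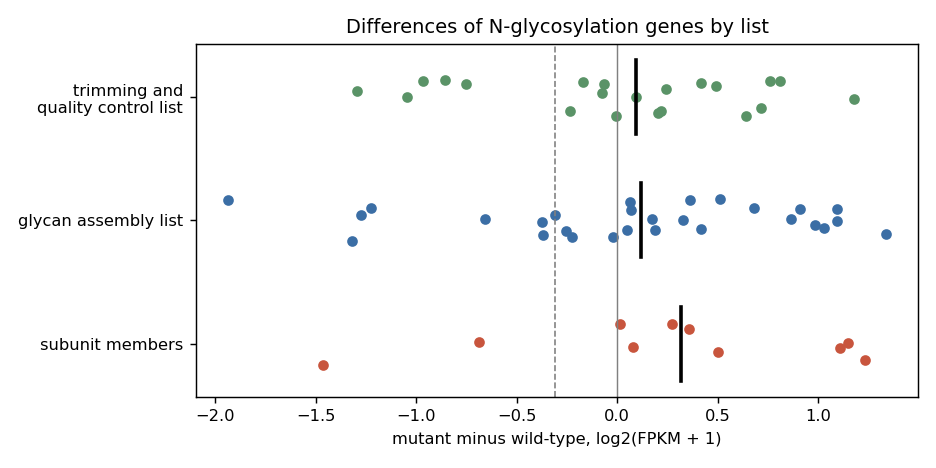
Mutant minus wild-type difference in log2(FPKM + 1) of the tested subunit members (10), genes of glycan assembly (28) and genes of glycan trimming and quality control (21); each point is a gene, the black bar the list median (0.32, 0.12 and 0.09) and the dashed line the median of all tested genes (-0.31). Each list holds genes on both sides of 0.

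Profiles over the 5 libraries were compared by the root mean square difference of centred log2(FPKM + 1) values among 10324 tested genes with a symbol. The mean member profile was closest to myoz2a (0.0424), yipf3 (0.0625), sel1l (0.0741), foxa3 (0.0757) and xbp1 (0.0802). In centred values that mean was 0.37 in mutant 1, -0.06 in mutant 2 and -0.16 to -0.01 in wild-type libraries. It includes tusc3 and stt3b, which lay -2.76 and -1.21 from their wild-type means in mutant 2, where the member median was 0.40. The mean is thus unlike krtcap2, dad1, rpn1 and stt3a, which were higher in both mutants. myoz2a encodes a sarcomere protein, yipf3 a Golgi membrane protein, sel1l a part of an ER ubiquitin ligase complex, foxa3 a transcription factor of endoderm and xbp1 a transcription factor of the unfolded protein response. xbp1 stood at 113 to 120 FPKM in wild-type and 183 and 126 FPKM in mutant libraries. The profile of stt3a was closest to cep170aa (0.0503), arcn1b (0.0531), a subunit of the COPI vesicle coat, and kars1 (0.0754), the lysine tRNA ligase. That of stt3b was closest to dnaja2a (0.0149), a cytosolic co-chaperone, RGS20 (0.0301) and atp13a2 (0.0311). The likeness is over 5 libraries, a sparse one among them, and is a description only.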

How the data were processed

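The deposited table gives FPKM per gene and library, made by the authors, with gene lengths, coordinates, names and descriptions. The submitters' processing notes name HISAT2 2.0.5, an aligner, and featureCounts 1.5.0-p3, a read counter. No source used here gives the genome build, the annotation or the strand setting, and coordinates are those of the table. FPKM times gene length fell on whole reads for 100.0% of values within 0.02 reads. The implied depth was 0.980 to 1.08 times the recovered reads in 4 libraries and 1.23 times in mutant 2, which lowers its FPKM. Floors of 3 reads cover counting error only.

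Groups came from the genotype label. limma 3.58.1 in R 4.3.3 was fitted to log2(FPKM + 1) over the 13680 genes that reached 1 FPKM in 2 or more libraries (no covariate, a trend of variance with mean, Benjamini-Hochberg adjustment, 3 residual and 4.456 prior degrees of freedom). These log2 differences understate changes of low genes. The procedure was tested on simulated data drawn from wild-type means with the same spread in all 5 libraries. None of these was sparse, so that test does not cover a library like mutant 2. Python 3.11.15, numpy 2.4.6, pandas 2.3.3 and matplotlib 3.10.9 were used for the rest. The members and lists were chosen with earlier results of these data known, so no p is given for a list as a whole. The permutation p of 0.1 for the ratio of assembly genes rests on genes so chosen. It is also the smallest that the design allows, so no conclusion is drawn from it. Alternatives were other pseudocounts, filters, scalings and variance models, voom on recovered reads, a replicate block and leaving out each library. Named genes were all members, ost4, tmem258 and mlec, up to 4 genes of smallest p per direction and list, and the nearest profiles. An item that this rule would name is not reported here. Of 34 names in the assembly list 30 had a row, and of 30 in the trimming list, which held alternative copy names, 21.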

Additional observations from a re-analysis of the deposited data

How the results depend on the processing

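No member and no other N-glycosylation gene passed under the alternatives except in the fit without mutant replicate 1, where 5 members and 27 of the other genes passed. In that fit mutant 2 stands alone for the mutants. It assumes that it varies like the wild-type libraries and called 54.3% of all genes. The 5 were krtcap2, both dad1 rows, stt3b and tusc3. Leaving out 1 library at a time therefore gave 0 to 5 members and 0 to 27 other genes. The member median ran from 0.21 (without wild-type replicate 1) to 0.42 (median-of-ratios scaling), and its gap to the median of all genes ran from 0.25 under quantile normalization to 0.86. With ostc counted as 0, the difference in the ratio of assembly genes kept its sign, from 0.51 to 1.75 when a library was left out. With a pseudocount of 0.1 it was 1.69. No range over libraries left out was formed without ostc. ddost was -0.04 and rpn2 -0.06 without wild-type replicate 1, and -0.25 and -0.17 without mutant replicate 1, against 0.28 and 0.33 without mutant replicate 2. Over all alternatives the log2 difference ran from 1.05 to 1.27 for krtcap2 and from -4.98 to -0.16 for tusc3, the lowest with voom on the recovered reads. The labels share replicate numbers 1 and 2 between groups, and the numbers were not taken as pairs. Deviations of same-numbered libraries correlated at 0.06 and -0.01. The deviations of 2 mutant libraries mirror each other, so these correlations cannot show or exclude pairing. With the replicate block, 145 genes passed against 1, among them 0 members. The member median was then 0.37 and the difference in the ratio of assembly genes 1.02. The scaling to recovered reads and the ratios of assembly genes without ostc and tusc3 were added after the data were seen. The FPKM ratios of krtcap2 to magt1, of rpn1 to rpn2 and between the dad1 rows were not planned either. krtcap2 had 2452 to 7570 reads per library, so counting error was small beside the spread between libraries, and precision rests on 3 and 2 libraries.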
